A study of Mus musculus with 6 samples.

Results

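Dying cells attract phagocytes with soluble find-me signals, and 10 genes that sense or process these signals were examined in starry-sky tumor-associated macrophages (SS-TAMs) and germinal center macrophages (GCMs). The genes were taken by name, as probe sets that the platform annotation assigns to exactly 1 gene. Of the 10 listed genes, 9 had such a probe set, 1 each, among 19938 genes on the array. For Adora2a, an adenosine receptor gene, no probe set is named here, so it was not analysed. SS-TAMs were captured by laser from xenografts of BL2, a single human Burkitt's lymphoma line grown subcutaneously to 1.44 cm2 in female BALB/c SCID mice, a strain without mature lymphocytes of either the T or the B lineage, and cells were picked by their CD68 label. The GCMs were cut from germinal centers of female BALB/c mice that carry a CSF1R EGFP transgene, a reporter driven by the Csf1r promoter, and had been immunized with sheep red blood cells, given in 2 doses. For these mice the labels disagree, with spleen given as the tissue and lymph nodes in the source name. All mice were 6 to 12 weeks old, 1000 cells were captured from each, and each of the 3 SS-TAM and 3 GCM arrays (Affymetrix Mouse Gene 1.0) is 1 animal.

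Fractalkine, nucleotides and sphingosine 1-phosphate (S1P) are 3 of the known classes of find-me signal. Fractalkine is sensed by CX3CR1, and it is released by apoptotic B cells. ATP and UTP leave dying cells through pannexin channels and act on P2Y and P2X receptors, among them P2Y2, which guides phagocytes toward dying cells. Extracellular ATP is then cut to AMP by CD39 (Entpd1) and AMP to adenosine by CD73 (Nt5e), and adenosine dampens inflammation through the receptor that Adora2a encodes. S1P is sensed by S1P receptors, of which S1PR1 is also the receptor that lets lymphocytes leave lymphoid organs.

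The 9 measured genes went in different directions. On the deposited scale P2rx4, Entpd1 and P2ry6 were higher in SS-TAMs (relative to core macrophage markers P2ry6 turned lower and P2rx4 and Entpd1 were not called), S1pr1 was lower, and Cx3cr1, P2ry2, P2ry12, P2rx7 and Nt5e did not pass the test. A gene was called at an adjusted p under 0.05 by limma (Benjamini-Hochberg over all 19938 genes, log2 of the deposited intensities). By this rule 9.90% of all genes were called, 5.16% higher in SS-TAMs and 4.74% lower, and with 9 members the counts of 3 and 1 describe these genes only. The arrays of both groups did not overlap for the same 4 genes, whereas 30.1% of all genes did not overlap. The median log2 fold change of the 9 genes was -0.03, and that of all genes was 0.04.

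**Figure D1:**
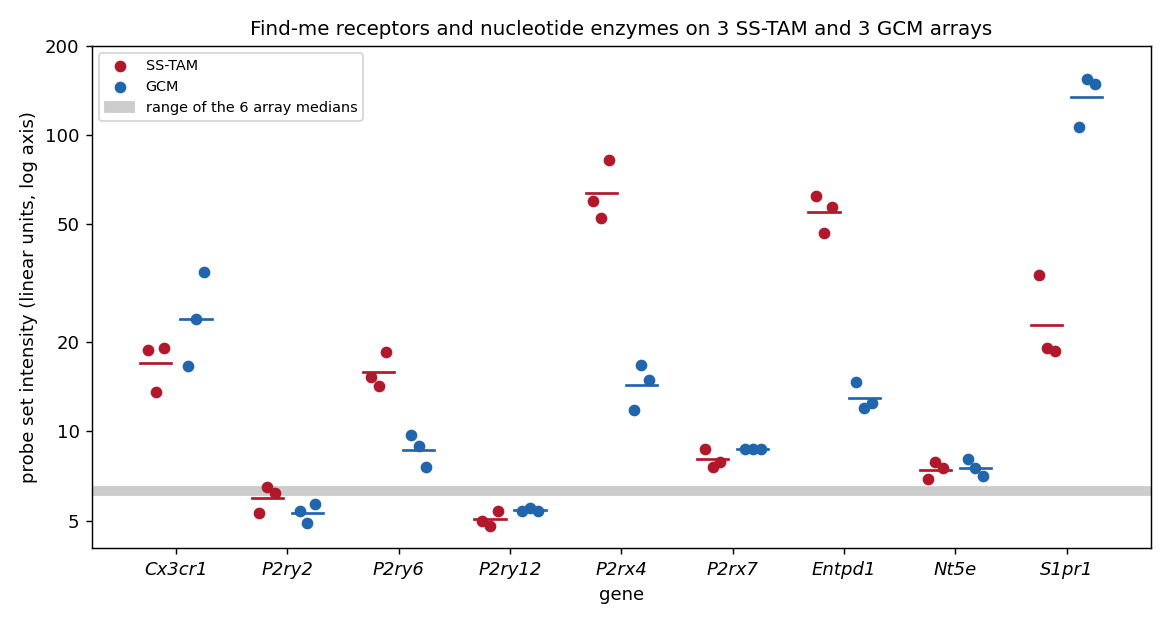
Probe set intensity (linear units, log axis) of the 9 measured genes; each point is 1 array of 3 SS-TAM (red) or 3 GCM (blue) arrays, bars are geometric means and the grey band is the range of the 6 array medians, 6.1 to 6.5. P2rx4, Entpd1 and P2ry6 lie higher on every SS-TAM array (P2ry6 at -1.01 on the log2 scale relative to core macrophage markers), S1pr1 lies lower on every SS-TAM array, and P2ry2 and P2ry12 lie close to the grey band.

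The captured cells held macrophage transcripts in both groups, but unequally. Of 19 measured core macrophage markers, 14 were called higher in SS-TAMs and none was lower, and their summed intensity lay between 3052 and 4209 in SS-TAMs and between 1173 and 1349 in GCMs. Adgre1 (F4/80) averaged 86.1 in SS-TAMs and 5.03 in GCMs, below the median intensity of the arrays. Of 17 T cell markers, 9 were lower and none higher, with sums between 268 and 392 in SS-TAMs and between 1315 and 1759 in GCMs. Of 12 fibroblast and pericyte markers, 5 were called higher in SS-TAMs and none was lower, with sums between 781 and 1535 in SS-TAMs and between 343 and 498 in GCMs. Sparc, a matrix protein gene of this list, averaged 598 in SS-TAMs and 108 in GCMs. Thy1 is in both the T cell and the fibroblast list, and averaged 135.5 in SS-TAMs and 155.5 in GCMs. The arrays had similar medians but differed at the top of the scale, with a 99th percentile of 241 to 284 in SS-TAMs and 614 to 664 in GCMs, and the part of this in the differences was not tested. In such bulk captures, fewer cells of a type and less RNA per cell cannot be told apart. The gene lists used here were chosen with earlier results of these arrays known.

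The promoters of P2rx4, P2rx7 and Entpd1 are shown because P2rx4 and Entpd1 were the members with the largest increases, while P2rx7, the chromosomal neighbor of P2rx4, was not called. RefSeq windows (GRCm38.p6) matched 7 of the 10 genes and gave 10 windows; P2ry6, S1pr1 and Adora2a had none. Each sequence is the 250 bases before a start, 5′ to 3′, with capitals at TGACG or its reverse complement CGTCA, the core of a cAMP response element.
P2rx4, chr5:122707294-122707543, plus strand: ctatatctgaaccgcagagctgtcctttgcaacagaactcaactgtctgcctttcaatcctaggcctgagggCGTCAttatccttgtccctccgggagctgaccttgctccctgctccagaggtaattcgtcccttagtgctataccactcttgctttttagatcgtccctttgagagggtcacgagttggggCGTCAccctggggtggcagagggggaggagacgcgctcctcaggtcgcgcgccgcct
P2rx7, upstream window, chr5:122643677-122643926, plus strand: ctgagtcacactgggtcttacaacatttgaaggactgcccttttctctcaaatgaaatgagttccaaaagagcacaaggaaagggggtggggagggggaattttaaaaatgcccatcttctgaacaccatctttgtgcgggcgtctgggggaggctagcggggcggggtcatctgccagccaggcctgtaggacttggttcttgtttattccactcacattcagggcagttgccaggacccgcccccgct
Entpd1, upstream window, chr19:40612116-40612365, plus strand: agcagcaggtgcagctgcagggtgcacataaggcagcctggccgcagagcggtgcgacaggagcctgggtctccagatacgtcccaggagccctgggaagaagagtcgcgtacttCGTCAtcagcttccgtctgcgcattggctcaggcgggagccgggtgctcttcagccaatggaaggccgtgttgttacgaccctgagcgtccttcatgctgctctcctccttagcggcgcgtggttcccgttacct
Entpd1, downstream window, chr19:40659520-40659769, plus strand: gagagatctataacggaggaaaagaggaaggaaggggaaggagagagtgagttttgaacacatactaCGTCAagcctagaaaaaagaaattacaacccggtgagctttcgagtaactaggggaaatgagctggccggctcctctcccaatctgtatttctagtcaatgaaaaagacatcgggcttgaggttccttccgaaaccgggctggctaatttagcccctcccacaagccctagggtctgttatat

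TGACG was present on either strand in the P2rx4 window, at 2 places, and at 1 place in each Entpd1 window. It was absent from the other 7 windows, which belong to Cx3cr1, P2ry2, P2ry12, P2rx7 and Nt5e. The same letters occur in 17.8% of 32851 windows of this length. The motif was chosen after the values of the genes were known, and a match describes the letters only. GAGGAA, a sequence bound by the macrophage factor PU.1, occurred 2 times in the downstream Entpd1 window and in no other member's window, against 23.3% of all windows. CACGTG, the E-box of lysosomal gene regulators, occurred in neither gene's windows, but once each in a P2ry2 and the P2ry12 window, against 6.02% of all windows.

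Cx3cr1 encodes the fractalkine receptor, a marker of resident phagocytes and patrolling monocytes. Its intensity was 18.8, 13.6 and 19.1 in SS-TAMs, against 16.6, 24 and 34.4 in GCMs. The ranges overlapped, because GCM replicate 1 lay below 2 of the SS-TAM arrays. Mean intensity with its SD over 3 arrays was 17.2 ± 3.09 for SS-TAMs and 25.0 ± 8.94 for GCMs. The log2 fold change was -0.50, with a 95% interval of -1.20 to 0.21 and an adjusted p of 0.32 from limma. The interval holds no difference as well as a marked decrease. Cx3cr1 varied more among the GCM arrays, 2.07-fold between the lowest and the highest, than among the SS-TAM arrays, 1.40-fold. On every array it lay above the median, at percentiles of 82.0 to 91.2 among all probe sets. GCM replicate 1, the lowest GCM array for Cx3cr1, also had the highest sum of 11 B cell markers, 403 against 164 and 165. On GCM replicates 1, 2 and 3 the T cell marker sums were 1314.5, 1554.5 and 1758.7. The dendritic cell marker sums were 150.2, 201.1 and 231.9 on the same arrays. There the monocyte marker sums were 83.3, 93.1 and 80.8, and the core macrophage marker sums 1207.6, 1172.5 and 1349.3, neither in the order of Cx3cr1. The part of any of these cells in the Cx3cr1 values was not tested.

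P2rx4 encodes P2X4, an ATP-gated cation channel that macrophages hold largely in lysosomes. It was at 59.9, 52.5 and 82.2 in SS-TAMs, against 11.8, 16.7 and 14.9 in GCMs. The lowest SS-TAM array was higher than any GCM array, and the highest values were on SS-TAM replicate 3. The difference was 4.45-fold (2.15 ± 0.20 on the log2 scale, estimate ± standard error, limma adjusted p = 0.0037), and it was called without any 1 of the 6 arrays in turn. Relative to the core macrophage markers the difference was 0.27 on the log2 scale and was not called (limma adjusted p = 0.18). P2rx4 stood at rank 155 of all genes by the size of the change. Camkk2, a kinase gene that overlaps P2rx4 in RefSeq, was at a mean of 5.80 in SS-TAMs and 5.77 in GCMs (limma adjusted p = 0.95).

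P2rx7 encodes P2X7, the ATP-gated channel that opens at high ATP and triggers the NLRP3 inflammasome, and no other protein-coding gene lies between it and P2rx4 on chromosome 5. P2rx7 was at 8.7, 7.6 and 7.9 in SS-TAMs and at 8.7 on all 3 GCM arrays. The same value thus stands on 4 of 6 arrays, and 10.1% of all probe sets have 1 value on 4 or more arrays. Its log2 fold change was -0.11 (95% interval -0.27 to 0.05, adjusted p = 0.34 from limma). P2rx7 lay at percentiles of 61.0 to 70.3, and without detection calls a low level and no expression cannot be told apart.

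P2ry6 encodes P2Y6, a UDP receptor that drives phagocytosis in mouse microglia. It was at 15.3, 14.2 and 18.5 in SS-TAMs and at 9.7, 8.9 and 7.6 in GCMs. No SS-TAM array overlapped a GCM array. The increase was 1.83-fold (0.87 ± 0.13 on the log2 scale, estimate ± standard error, limma adjusted p = 0.016). This call was lost without GCM replicate 2 or 3 (adjusted p = 0.073 and 0.059), and also when intensities under 6.3 were raised to that value (limma adjusted p = 0.066).

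P2ry2, the ATP and UTP receptor, is the direct neighbor of P2ry6 among protein-coding genes of chromosome 7. P2ry2 was at 5.3, 6.5 and 6.2 in SS-TAMs and 5.4, 4.9 and 5.7 in GCMs, at percentiles of 31.2 to 50.8. At this level the groups could not be separated (log2 fold change 0.17, 95% interval -0.08 to 0.42, adjusted p = 0.34 from limma).

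P2ry12, the ADP receptor of platelets and microglia, was dim on all arrays. It was at 5, 4.8 and 5.4 in SS-TAMs and at 5.4, 5.5 and 5.4 in GCMs, below the median of its array in every case (log2 fold change -0.10, 95% interval -0.26 to 0.05, adjusted p = 0.34 from limma). No detection calls were used, so a low level and no expression cannot be told apart for P2ry12. Among 9 measured genes that mark microglia and similar resident cells, none was called in either direction, and Tmem119, a microglial surface protein, averaged 8.07 in SS-TAMs and 6.90 in GCMs. Of 8 measured platelet and megakaryocyte markers, 1 was higher and none lower: Pf4, a platelet chemokine gene, with a mean of 13.3 in SS-TAMs and 4.73 in GCMs (limma adjusted p = 0.0013). The log2 fold change of Pf4 was 1.49, against a median of 1.84 for the core macrophage markers.

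Entpd1 encodes CD39, the surface enzyme that removes ATP and ADP. It was at 62.4, 46.6 and 57.1 in SS-TAMs, against 14.7, 12 and 12.5 in GCMs. Every SS-TAM array was far brighter than the brightest GCM array. The increase was 4.22-fold (2.08 ± 0.13 on the log2 scale, estimate ± standard error, limma adjusted p = 0.0014), it was called without any 1 array, and adjusted p did not exceed 0.013 in those fits. Relative to the core macrophage markers the difference was 0.19 on the log2 scale and was not called (limma adjusted p = 0.33). CD39 is also carried by regulatory T cells and endothelium. Of 7 regulatory T cell markers 1 was lower and none higher in SS-TAMs. The lower gene was Il2ra, at 3.77 in SS-TAMs and 4.8 in GCMs (limma adjusted p = 0.026). Foxp3, at 6.83 in SS-TAMs and 8.07 in GCMs, was not called (limma adjusted p = 0.22). None of 12 endothelial markers was called (their sum lay between 92.5 and 98 in SS-TAMs and between 95.2 and 116 in GCMs). Il2ra lay below the array medians in both groups, and the part of either cell type in the Entpd1 difference was not tested.

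Nt5e encodes CD73, which turns the AMP made by CD39 into adenosine. It was at 6.9, 7.9 and 7.5 in SS-TAMs and 8.1, 7.5 and 7.1 in GCMs, just above the array medians. The groups overlapped (log2 fold change -0.03, 95% interval -0.22 to 0.17, adjusted p = 0.86 from limma).

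S1pr1, the S1P receptor gene, was the only member called lower. It was at 33.8, 19.1 and 18.7 in SS-TAMs, against 106.2, 154.4 and 149.1 in GCMs. The highest SS-TAM array lay far below the lowest GCM array, and SS-TAM replicate 1 was brighter than the other SS-TAM arrays. S1pr1 fell by 2.55 on the log2 scale, so that it was 5.87 times higher in GCMs (standard error 0.27, adjusted p = 0.0055 from limma). The call was kept without any 1 array, with adjusted p up to 0.036. T cells carry S1PR1, and 9 of 17 of their markers were lower in SS-TAMs as well: Cd3g, of the T cell receptor complex, averaged 6.33 in SS-TAMs and 355 in GCMs, and the part of T cell transcripts in the S1pr1 difference was not tested. Endothelial cells also carry S1PR1. None of 12 endothelial markers was called, and their median log2 fold change was 0.01. Pecam1, which is among them, averaged 15.1 in SS-TAMs and 24.3 in GCMs (adjusted p = 0.069 from limma). Others were dim: Kdr, at 4.83 in SS-TAMs and 4.90 in GCMs, and Tek, at 5.80 and 5.37, lay below the array medians. The part of endothelial transcripts in the S1pr1 difference was not tested.

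**Figure D2:**
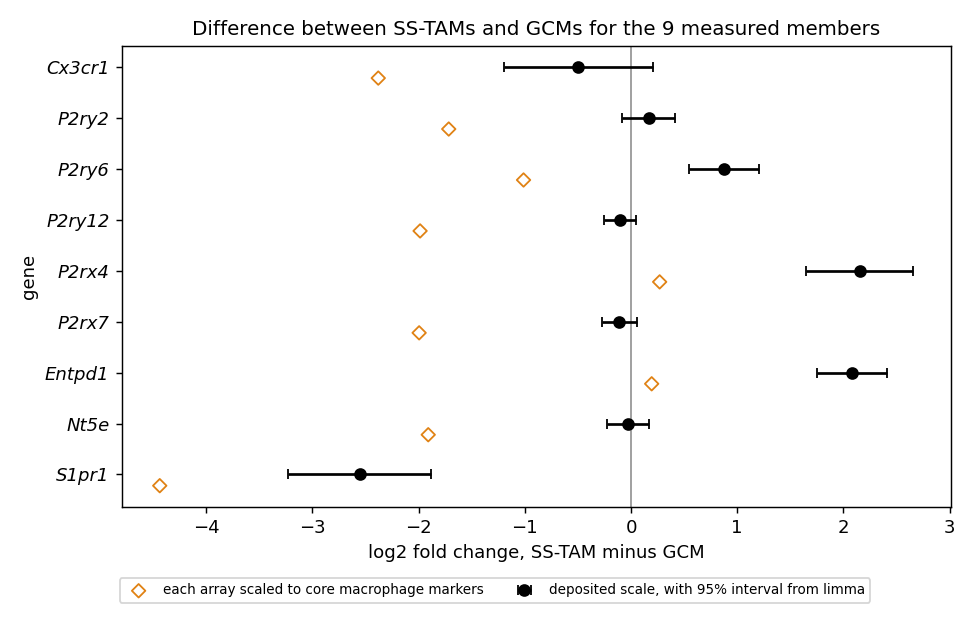
Difference in log2 intensity between SS-TAMs and GCMs (positive, higher in SS-TAMs) for each of the 9 genes; black points are limma estimates on the deposited scale with 95% intervals, and open diamonds are estimates after each array was scaled to 19 core macrophage markers. On the deposited scale P2rx4, Entpd1 and P2ry6 lie above 0 and S1pr1 below it, and after the scaling P2rx4 is at 0.27, Entpd1 at 0.19 and P2ry6 at -1.01.

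Relative to the core macrophage markers the picture changed. When each array was scaled to their mean, the all-gene median log2 fold change became -1.84. P2rx4 and Entpd1 were then no longer called, and their increase was about as large as the mean increase of the macrophage markers. Single markers differed widely, from -0.09 for Aif1 and 0.57 for Lyz2 to 4.08 for Msr1 and 5.26 for Mrc1 on the log2 scale. The scaled values therefore depend on which markers are listed. P2ry6 turned to -1.01 and Cx3cr1 was at -2.38, both called lower, and S1pr1 was at -4.44. Relative to the median of all genes under that scaling, P2rx4 lay at 2.11, Entpd1 at 2.04, P2ry6 at 0.83, Cx3cr1 at -0.54 and S1pr1 at -2.60.

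Other receptors for nucleotides, adenosine and lysolipids were mostly not called. Of 22 listed, 17 were measured, 1 was higher and 1 lower, against 9.90% of all genes called in either direction. P2ry13, an ADP receptor, was at 12.2, 15.4 and 13.1 in SS-TAMs and 23.4, 23.4 and 22.5 in GCMs, 1.71 times higher in GCMs (adjusted p = 0.0082 from limma), and was called without any 1 array. P2rx5 averaged 8.93 in SS-TAMs and 7.40 in GCMs (adjusted p = 0.034 from limma), but was not called once SS-TAM replicate 1 or any GCM array was dropped (adjusted p as high as 0.13), and turned to -1.61 relative to the core macrophage markers. P2ry14, the UDP-sugar receptor, was at 21.1, 14 and 31.4 in SS-TAMs and 14, 14.2 and 11.6 in GCMs, which did not pass (adjusted p = 0.22 from limma). S1pr2, S1pr3, S1pr4 and S1pr5 were measured too and none was called.

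Among 16 measured genes of nucleotide and adenosine breakdown and transport, 2 were higher and 1 lower, against 5.16% and 4.74% of all genes. Slc29a3, a nucleoside transporter of lysosomes, was at 35.4, 31.3 and 31.3 in SS-TAMs and 17.8, 17.2 and 18.6 in GCMs (1.83-fold, adjusted p = 0.0025 from limma), and was called without any 1 array. Slc29a1, the surface nucleoside transporter, had a mean intensity of 12.8 (SD 1.94) in SS-TAMs and 8.47 (SD 0.70) in GCMs, n = 3 each (limma adjusted p = 0.046). It kept its call in only 1 of the 6 fits that left out 1 array, the fit without SS-TAM replicate 1 (adjusted p up to 0.17). Relative to the core macrophage markers both transporters turned, to -1.02 and -1.29. Dpp4 was lower, with a mean of 9 (SD 3.03) in SS-TAMs and 23.9 (SD 5.58) in GCMs, n = 3 each (limma adjusted p = 0.031). Like Slc29a1, it was called only in the fit without SS-TAM replicate 1. Dpp4 is also in the dendritic cell list, of which 4 of 9 genes were lower and none higher. The 7 other members of the Entpd family that were measured (Entpd2 to Entpd8) were not called.

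Genes of S1P handling rose in 3 of 11 cases and fell in none, against 5.16% of all genes that were higher. The fibroblast and pericyte markers moved the same way, in 5 of 12 cases, and their part in the values of this list was not tested. Sgpl1, the lyase that destroys S1P, was at 136.3, 75.6 and 146.7 in SS-TAMs and 37, 50.2 and 48.8 in GCMs (2.55-fold, adjusted p = 0.036 from limma). Asah1, the lysosomal ceramidase that yields sphingosine, was at 27.6, 32.8 and 42.8 in SS-TAMs and 10.9, 15.7 and 10.8 in GCMs (limma adjusted p = 0.014). Plpp3, a phosphatase of lipid phosphates, averaged 8.93 in SS-TAMs and 5.37 in GCMs (limma adjusted p = 0.016). Each group of arrays stood apart for all 3 genes. Sgpl1 was called in only 1 of the 6 fits without 1 array, that without SS-TAM replicate 2 (adjusted p up to 0.12), Asah1 was not called when SS-TAM replicate 2 or GCM replicate 1 or 3 was dropped, nor Plpp3 when any GCM array was. Relative to the core macrophage markers all 3 turned, Sgpl1 to -0.53, Asah1 to -0.42 and Plpp3 to -1.16. The kinases that make S1P, Sphk1 and Sphk2, averaged 8.57 and 19.4 in SS-TAMs and 7.33 and 16.9 in GCMs and were not called.

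Genes that control S1PR1 or guide lymphocyte egress were lower in 2 of 6 measured cases and higher in none. Of all genes, 4.74% were lower. In SS-TAMs 9 of 17 T cell and 4 of 9 dendritic cell markers were lower too, and Ccr7 is in the dendritic cell list. The part of these cells in the values of the egress genes was not tested. Ccr7, a receptor of lymphocytes and dendritic cells, was at 21.8, 43.1 and 35.6 in SS-TAMs and 72.4, 113.8 and 137.9 in GCMs (adjusted p = 0.033 from limma). Cd69, which removes S1PR1 from the surface of activated lymphocytes, averaged 7.70 in SS-TAMs and 15.6 in GCMs, with no overlap of the arrays (limma adjusted p = 0.031). Ccr7 was called only in the fit without GCM replicate 1, and Cd69 only in that without GCM replicate 2 (the highest adjusted p was 0.13 for Ccr7 and 0.098 for Cd69). Klf2, the transcription factor that switches on S1pr1, was at 12.3, 12.3 and 15.5 in SS-TAMs and 17.4, 14.7 and 16.4 in GCMs and did not pass (adjusted p = 0.21 from limma).

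**Figure D3:**
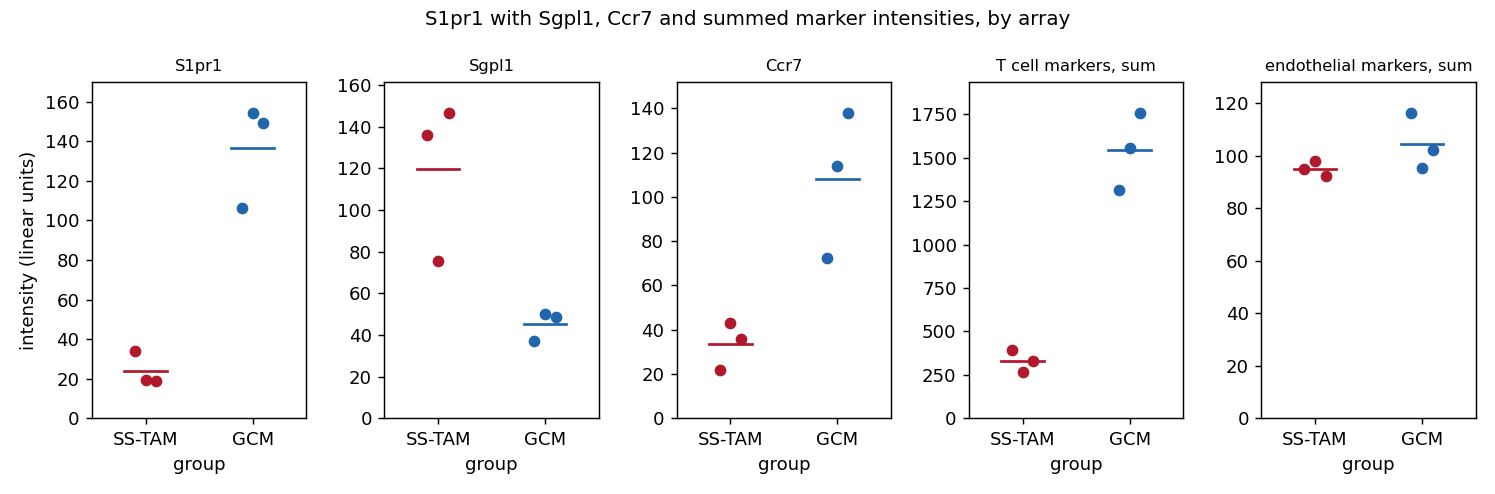
Intensity (linear units, axes from 0) of S1pr1, Sgpl1 and Ccr7, and the summed intensity of 17 T cell and 12 endothelial cell markers; each point is 1 array of 3 SS-TAM (red) or 3 GCM (blue) arrays and each bar is the mean. S1pr1, Ccr7 and the T cell sum are lower on every SS-TAM array, Sgpl1 is higher on every SS-TAM array on the deposited scale (-0.53 on the log2 scale relative to core macrophage markers), and the endothelial sums overlap.

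Genes of find-me signal release, of the P2X7 inflammasome, of adenosine and cAMP responses and of chemotaxis downstream of Gi proteins gave few calls. Over all genes, 9.90% were called. None of 11 genes of signal release, of 9 genes of the adenosine and cAMP response or of 10 genes of Gi chemotaxis was called. Cx3cl1, the gene of fractalkine itself, averaged 7.87 in SS-TAMs and 6.47 in GCMs, and Adam17, a protease that sheds fractalkine, 45.5 in SS-TAMs and 39.1 in GCMs (adjusted p = 0.31 and 0.28 from limma). The array is designed for mouse transcripts, and the part of RNA from the human lymphoma cells in these values was not tested. Of 10 inflammasome genes 1 was lower and none higher: Pycard, the adaptor ASC, at 5.2, 6.3 and 5.9 in SS-TAMs and 7.9, 7.8 and 7.8 in GCMs (adjusted p = 0.028 from limma), which was not called when SS-TAM replicate 3 or any GCM array was dropped. Nlrp3 and Il1b lay close to or below the array medians in both groups, at 4.53 and 6.20 in SS-TAMs and 4.03 and 4.97 in GCMs. Gnai2 and Gnb1, G protein subunits that relay Gi-coupled receptors such as CX3CR1 and P2Y12, were bright, at 246 and 164 in SS-TAMs and 187 and 158 in GCMs, and were not called.

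**Figure D4:**
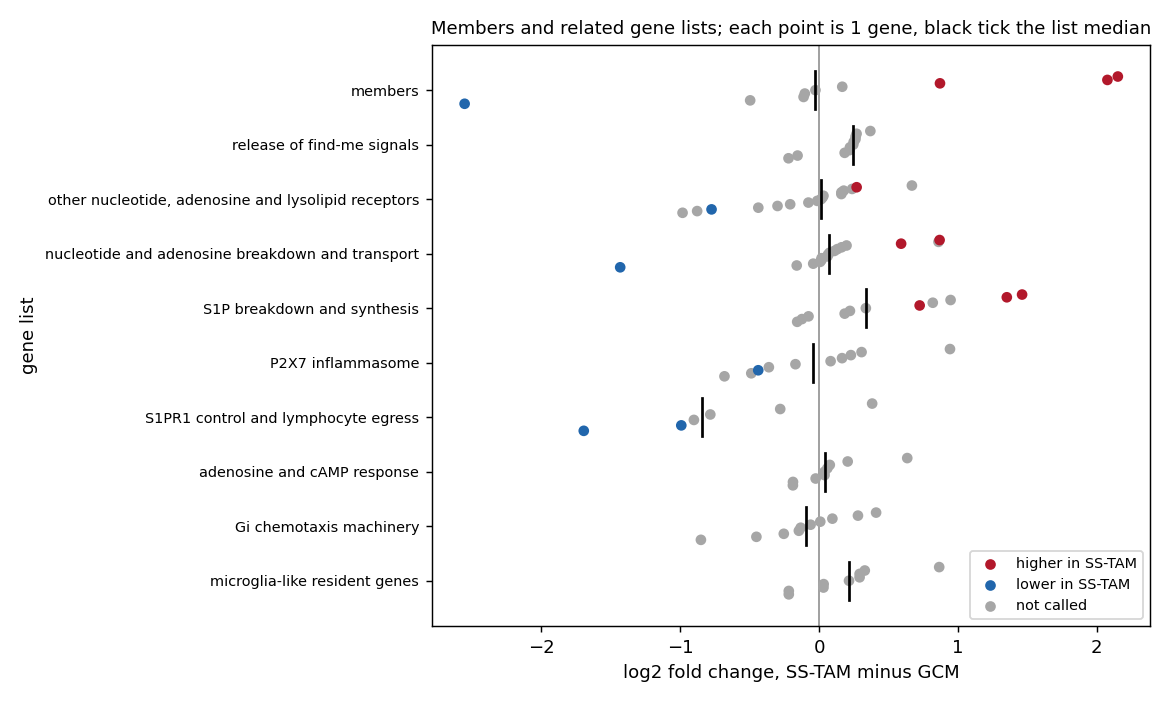
Difference in log2 intensity between SS-TAMs and GCMs (positive, higher in SS-TAMs) for the 9 measured genes (top row, named members) and of the genes of 9 related lists on the deposited scale; each point is 1 gene, red if called higher in SS-TAMs, blue if called lower and grey if not called, and each black tick is the list median. The S1P list has a median of 0.34 and the S1PR1 control list of -0.84, against 0.04 for all genes, and relative to core macrophage markers every red point outside the top row turns below 0.

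The genes most like each member across the 6 arrays were taken among 9969 genes with a mean above the median, by the root mean square difference of log2 profiles centered on their own means. For Entpd1 these were Unc93b1, which carries Toll-like receptors to endosomes, the complement gene C1qc, and Slc15a3, a lysosomal transporter (differences 0.08, 0.09 and 0.10 log2 units). For P2rx4 they were Tlr4, Acp2 (lysosomal acid phosphatase) and Slc7a8 (0.15, 0.19 and 0.20). P2ry6 was closest to Ostm1, Bcl2l12 and Atraid (0.09, 0.10 and 0.10), S1pr1 to Epsti1, Atp5e and the lymphocyte GTPase gene Gimap9 (0.20, 0.20 and 0.22), and Cx3cr1 to Vwa5a, Dnajb6 and Trappc4 (0.17, 0.18 and 0.19).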

How the data were processed

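RNA of 1000 laser-captured cells per mouse was amplified and hybridized to 1 Affymetrix Mouse Gene 1.0 array per mouse, giving 3 SS-TAM and 3 GCM arrays, grouped by their titles. The authors deposited probe set intensity values on a linear scale with 1 decimal for 28944 probe sets. RMA (background correction, normalization and summary of probes) and limma stand in the submitters' notes. Versions, settings and the genome build were not given in the sources used here. Precision is limited by the number of arrays.

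Probe sets naming 1 gene (21789) were used, with symbols updated by gene ID through RefSeq (21698 matched). Those naming several genes (1621) or unnamed here (5534) were left out. The brightest probe set stood for each of 999 genes with several. Differences in log2 intensity were fitted in R 4.3.3 by limma 3.58.1 (lmFit, then eBayes, two-sided) without covariates, and p-values were adjusted by Benjamini-Hochberg over the 19938 genes. Folds are ratios of geometric means, SS-TAM over GCM. The scripts were tested on simulated data.

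The text names all members, up to 4 called genes of each list described (from its 2 brightest where none was called), similar profiles by a stated rule, and markers of cells known to carry a member. Members and lists were chosen with earlier results of these data known. Genes outside this rule (Camkk2, P2ry14, Klf2, Sphk1, Sphk2, Cx3cl1, Nlrp3, Il1b, Tmem119, Sparc and uncalled S1P receptors and Entpd genes) were named after their values were seen. Promoter windows came from RefSeq on GRCm38.p6. Alternatives covered scaling, a floor, dim genes, probe set choice, weights for arrays, the model of the variance, the replicate number as a block, dropping each array and a 2-fold criterion.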

Additional observations from a re-analysis of the deposited data

How the results depend on the processing

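P2rx4, Entpd1 and S1pr1 kept their direction and call under every alternative except scaling to the core macrophage markers, where, of these, only S1pr1 was called. That scaling left 0 members higher and 7 lower, and 68 genes higher and 19780 lower in all, since nearly every gene fell relative to these markers. P2ry2 turned to -1.72 and P2ry6 to -1.01 on the log2 scale there. Nt5e ranged from -0.071 to 0.027 when 1 array was left out, above 0 without SS-TAM replicate 1 (0.027) or GCM replicate 1 (0.024). P2ry6 was not called with intensities below 6.3 raised to 6.3 (adjusted p = 0.066), where all P2ry12 values lie at the floor and P2ry12 has no estimate. P2ry6 also missed a 2-fold criterion, and leaving out dim genes removed P2ry2 and P2ry12. Over all genes, that floor gave 381 higher and 412 lower, a 2-fold criterion 279 and 470, and leaving out 1 array 271 to 1159 higher and 399 to 796 lower (lowest without GCM replicate 2), against 1028 and 946 with all arrays. The labels number the replicates alike, but deviations of same-numbered arrays correlated by only 0.09, 0.09 and 0.02, although each array correlated best with its own number. With the replicate number as a block, 611 genes were higher and 708 lower, and P2ry6 was not called (adjusted p = 0.060). Without detection calls, P2ry2, P2ry12, P2rx7 and Nt5e lie too near the array medians to tell low expression from none.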
